A study of Homo sapiens with 8 samples.

Results

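The globin genes encode the protein chains of haemoglobin. All 10 functional human genes of the alpha and beta clusters were followed, chosen by name from the 35805 genes listed: HBZ, HBM, HBA2, HBA1 and HBQ1 on chromosome 16 and HBE1, HBG2, HBG1, HBD and HBB on chromosome 11. Of these, 9 passed the filter on low values and were tested among 14665 genes. HBB did not pass it and is described by its reads alone.

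RNA was sequenced from K562 cells, an established line from a chronic myeloid leukaemia that makes embryonic and fetal haemoglobin. All cells carried dCas9-KRAB, a Cas9 without cutting activity joined to a repressor domain, so a guide RNA silences the gene whose start it binds. The groups were cells with the guide sg1-IRF2, cells with the guide sg2-IRF2, cells with sgAAVS1, a control guide to a site outside IRF2, and untransduced cells that carried dCas9-KRAB and no guide. Each group had 2 libraries, and cells with a guide were harvested on day 7 after transduction. IRF2 is a DNA-binding factor of the interferon response, and the series asks what its loss does to these cells. Nothing in the labels tells if paired libraries are separate cultures, so every p-value here reflects differences among sequenced libraries, which may be technical.

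In human development the genes of each cluster are used roughly in their order along the chromosome. HBZ and HBE1 serve in the embryonic yolk sac, HBG1 and HBG2 with HBA1 and HBA2 in the fetal liver, and HBB and HBD with HBA1 and HBA2 after birth. A haemoglobin molecule joins a pair of alpha-type chains to a pair of beta-type chains, and a distant enhancer region at each cluster, the locus control region of the beta cluster among them, drives the genes in erythroid cells. HBM and HBQ1 are minor alpha-type genes whose proteins have no settled role.

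In the deposited table (hg38) HBZ lies at chr16:152687-154503, HBM at chr16:153892-166768, HBA2 at chr16:172847-173710, HBA1 at chr16:176680-177522 and HBQ1 at chr16:180453-181181, all on the plus strand. On the minus strand of chromosome 11 lie HBB at chr11:5225464-5229395, HBD at chr11:5232678-5235370, HBG1 at chr11:5248083-5249892, HBG2 at chr11:5248274-5645789 and HBE1 at chr11:5268345-5505617. The HBG2, HBE1 and HBM spans are far longer than a globin gene. The HBM span covers 12877 bases and shares 612 of them with the HBZ span. The HBG2 span reaches past both ends of the HBG2 gene in GENCODE release 29 (chr11:5253190-5505605). The HBG2 span holds all of HBE1 (237273 bases) and 1619 bases of HBG1, and the exons of HBZ and HBM share 205 bases in GENCODE release 29. HBA1 and HBA2 are near-identical in sequence, as are HBG1 and HBG2, so the split of reads within these pairs is uncertain and their sums are given below.

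Of the 10 genes, only 2 were matched in RefSeq's promoter table (GRCh38.p14), and the 250 bases before their RefSeq transcription start are shown. Both are low-level genes of their cluster. Both windows lie inside the deposited spans given above, so the RefSeq starts differ from the starts of those spans. The HBM window is chr16:165728-165977 on the plus strand and the HBD window is chr11:5234484-5234733 on the minus strand, both written 5′ to 3′ in the direction of the gene. Capitals mark the motif matches named below.
HBM: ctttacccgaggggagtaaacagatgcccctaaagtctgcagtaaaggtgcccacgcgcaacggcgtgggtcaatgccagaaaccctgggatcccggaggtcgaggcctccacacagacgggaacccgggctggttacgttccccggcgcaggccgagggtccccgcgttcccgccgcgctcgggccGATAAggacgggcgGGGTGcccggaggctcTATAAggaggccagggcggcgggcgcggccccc
HBD: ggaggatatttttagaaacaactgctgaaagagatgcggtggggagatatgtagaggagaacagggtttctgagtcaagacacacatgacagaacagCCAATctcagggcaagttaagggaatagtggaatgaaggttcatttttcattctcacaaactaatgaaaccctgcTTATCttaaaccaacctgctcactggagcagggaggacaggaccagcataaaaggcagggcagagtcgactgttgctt
Searched on both strands were GATAA, the core bound by GATA factors, CACCC, bound by KLF factors, the CCAAT box, the TATAA core and the interferon-stimulated element bound by interferon regulatory factors (GAAA, any 2 bases, then GAAA again). HBM held GATAA at 63 to 59 bases before the start, CACCC on the other strand at 49 to 45 and TATAA at 33 to 29. HBD held CCAAT at 153 to 149 bases before the start and GATAA on the other strand at 78 to 74. Among all 35116 promoter windows of that length, 20.4% held GATAA, 54.7% CACCC, 32.0% CCAAT, 18.9% TATAA and 3.02% the interferon-stimulated element, which had no match in either window. No 2 of these matches overlapped.

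Library totals over the listed genes ran from 5248359 reads in sgAAVS1 replicate 1 to 6738348 in sgAAVS1 replicate 2. IRF2 had 4 and 8 reads with sg1-IRF2, 22 and 21 with sg2-IRF2, 196 and 291 with sgAAVS1, and 271 and 268 in untransduced cells, which fits the labels. All 12 erythroid markers examined were detected, among them TFRC, the transferrin receptor, with 2183 to 2607 reads and GATA1, the erythroid master regulator, with 673 to 763. Of 7 megakaryocyte markers, 6 had 0 reads in every library and ITGA2B had 437 to 556. Myeloid CD33 and LYZ were also present, at 379 to 467 and 289 to 382 reads, while ELANE had 0. The lymphoid markers CD3E, CD79A, MS4A1, CD2 and CD7 had at most 6 reads in any library.

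K562 cells in all groups had embryonic and fetal globin RNA and almost none of the adult beta gene. HBG2, a gamma chain gene of fetal haemoglobin, had the most reads of the family, with 805 and 831 under sg1-IRF2, 827 and 821 under sg2-IRF2, 798 and 861 under sgAAVS1, and 815 and 861 in untransduced cells. Its partner HBG1 had 467 and 471 reads with sg1-IRF2, 472 and 473 with sg2-IRF2, 451 and 482 with sgAAVS1, and 475 and 476 in untransduced cells. The embryonic beta-type gene HBE1 had 495 and 526 reads with sg1-IRF2, 510 and 514 with sg2-IRF2, 483 and 545 with sgAAVS1, and 501 and 528 in untransduced cells. Read counts of HBG2 and HBE1 overlapped between all groups, and those of HBG1 stayed within 9 reads of each other outside the sgAAVS1 group. The sgAAVS1 group held the lowest and the highest library of HBG1 and HBE1, and the lowest of HBG2.

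The adult genes of the beta cluster stood far lower. HBD, the delta chain of the minor adult haemoglobin, had 32 and 38 reads with sg1-IRF2, 35 and 30 with sg2-IRF2, 23 and 31 with sgAAVS1, and 35 and 31 in untransduced cells. HBB, the beta chain of the major adult haemoglobin, had 1 read in sg1-IRF2 replicate 1, 1 read in untransduced replicate 2 and 0 reads in the other 6 libraries. A count of 0 allows up to 3 reads, which is 0.445 to 0.572 RPM (reads scaled by the library's total of recovered reads) across the libraries. These limits take in counting error alone. Whether PCR copies of a molecule were counted as separate reads is not given in the sources used here. No difference in HBB between groups was detectable at this depth.

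In the alpha cluster the embryonic, adult and minor genes were all detected. HBA2 had 217 and 224 reads with sg1-IRF2, 229 and 224 with sg2-IRF2, 224 and 238 with sgAAVS1, and 200 and 218 in untransduced cells. HBA1 had 197 and 216 reads with sg1-IRF2, 220 and 204 with sg2-IRF2, 197 and 222 with sgAAVS1, and 200 and 208 in untransduced cells. Both encode the same alpha chain and lay within a narrow band in every library. HBZ, the embryonic zeta chain, had 166 and 196 reads with sg1-IRF2, 165 and 169 with sg2-IRF2, 174 and 197 with sgAAVS1, and 156 and 153 in untransduced cells. HBM had 35 and 42 reads with sg1-IRF2, 29 and 32 with sg2-IRF2, 37 and 45 with sgAAVS1, and 23 and 25 in untransduced cells. For both HBZ and HBM the untransduced libraries were the lowest of the 8. HBQ1, the theta globin gene, had 102 and 109 reads with sg1-IRF2, 116 and 105 with sg2-IRF2, 96 and 99 with sgAAVS1, and 97 and 132 in untransduced cells, so its widest gap lay inside the untransduced group.

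**Figure D1:**
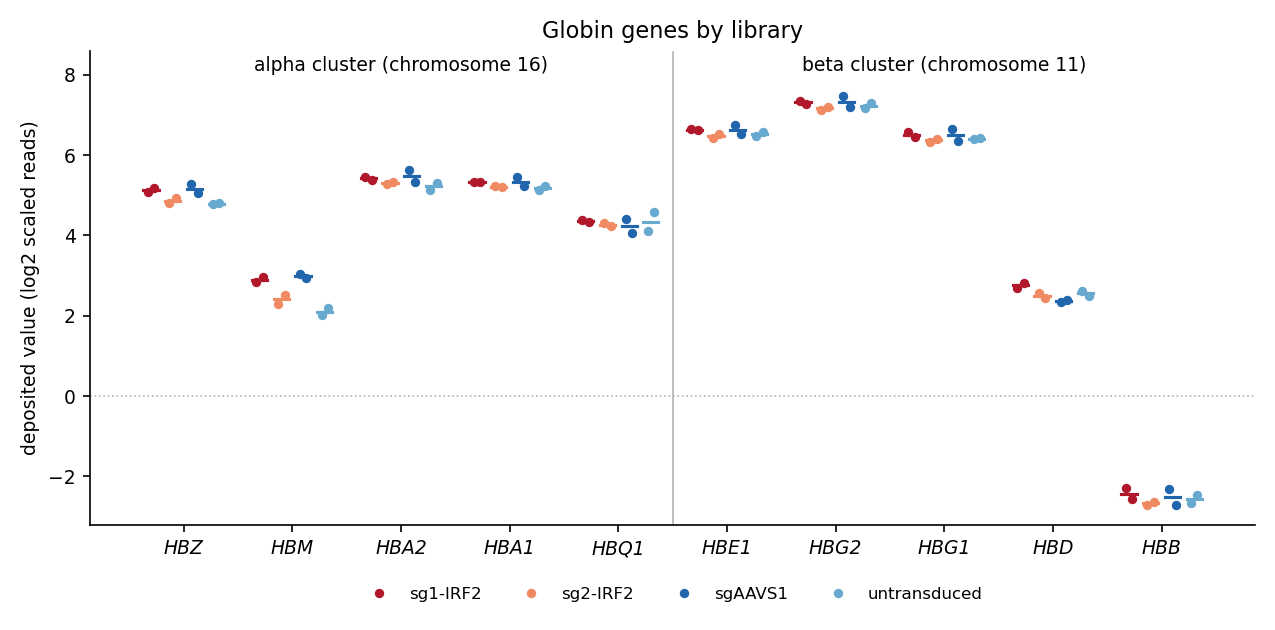
Deposited log2 value (log2 of scaled reads, vertical axis) of each of the 10 globin genes in each library. Points are libraries and short bars are means of the 2 libraries of a group. HBG2 is the highest gene and HBB sits near −2.5, where libraries with 0 reads are listed at the value of 0.9 read; the untransduced points of HBZ and HBM lie below the sgAAVS1 points.

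Per length of 1 reference transcript per gene, the order of levels was HBG2, HBG1, HBE1, HBA2, HBA1, HBZ, HBQ1, HBM, HBD and HBB. The median over the 8 libraries was 215 RPKM (RPM divided by the transcript's length in kilobases) for HBG2, with a range of 208 to 248. HBG1 followed at 96.7 and HBE1 at 90.3, and their ranges of 91.8 to 110 and 86.3 to 100 overlapped. HBA2 at 61.5 and HBA1 at 58.1 also overlapped in range, as did HBZ at 37.4 with HBQ1 at 32.5 and HBM at 11.2 with HBD at 10.6. The gaps between HBG2 and HBG1, between HBE1 and HBA2, between HBA1 and HBZ, between HBQ1 and HBM and between HBD and HBB exceeded the spread over libraries. With the exons of all transcripts merged, which makes HBG1 1659 bases long in place of 779, HBE1 at 86.3 moved ahead of HBG1 at 45.4. HBG2 stayed highest at 152 by that length. The gap between HBA1 and HBZ closed by it, with ranges of 38.0 to 45.0 and 32.1 to 43.9. HBG1 at 43.1 to 51.8 then also overlapped HBA2 at 38.4 to 51.6. Lengths are from GENCODE release 29, whose HBG2 is shorter than the deposited span, so the HBG2 level per length is uncertain.

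The 10 genes together took 0.0397% to 0.0473% of the reads of a library. Summed alpha cluster reads averaged 124 ± 1.17 RPM with sg1-IRF2, 119 ± 1.44 with sg2-IRF2, 129 ± 14.0 with sgAAVS1 and 112 ± 6.51 in untransduced cells (SD, n = 2 each). The beta cluster averaged 302 ± 15.1 RPM with sg1-IRF2, 293 ± 9.82 with sg2-IRF2, 310 ± 35.1 with sgAAVS1 and 295 ± 7.39 in untransduced cells. The sgAAVS1 group had the widest spread in both sums, with 139 and 119 RPM for the alpha cluster and 334 and 285 for the beta cluster. For HBG1 with HBG2 the sum averaged 212 ± 12.5 RPM with sg1-IRF2, 207 ± 6.83 with sg2-IRF2, 219 ± 27.3 with sgAAVS1 and 208 ± 4.87 in untransduced cells. For HBA1 with HBA2 it averaged 70.4 ± 2.27 RPM with sg1-IRF2, 69.8 ± 0.135 with sg2-IRF2, 74.2 ± 8.45 with sgAAVS1 and 65.4 ± 2.79 in untransduced cells. In each of these sums the means of both guide groups lay within 1 SD of the sgAAVS1 mean.

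**Figure D2:**
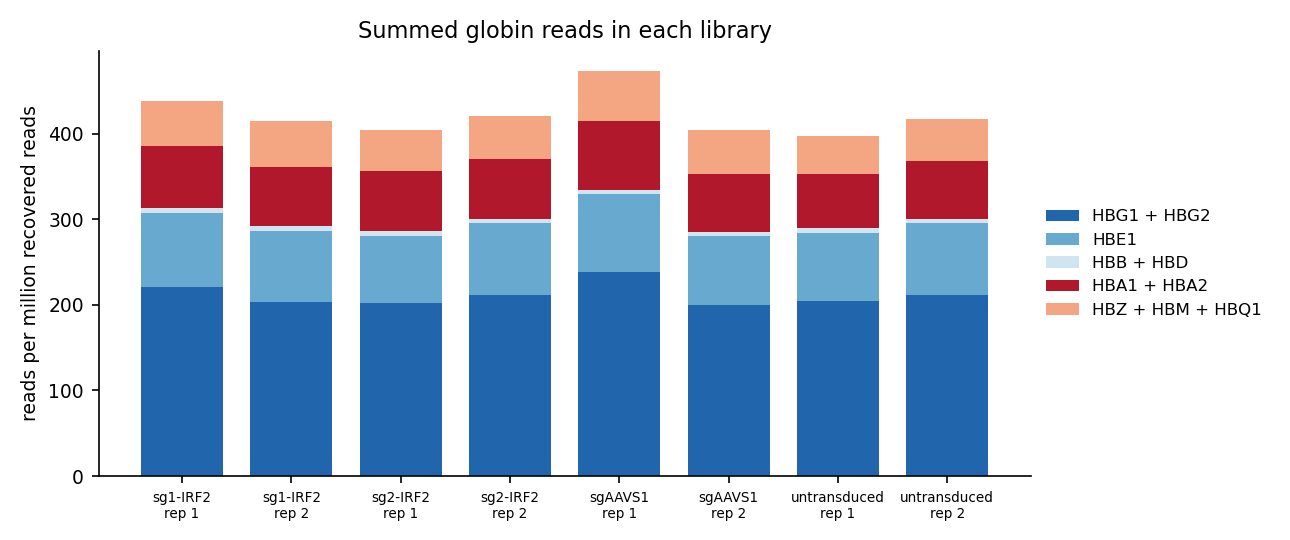
Summed reads of the globin genes in RPM (vertical axis, from 0) in each of the 8 libraries, stacked by gene pair or class. sgAAVS1 replicate 1 has the tallest bar at 473 RPM, the other 7 lie between 397 and 438, and the layers keep similar proportions.

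The make-up of the family varied little between libraries. Gamma genes made up 69.8% to 71.2% of beta cluster reads, HBE1 27.4% to 28.4% and the adult genes HBD and HBB together 1.31% to 2.04%. HBG2 held 63.2% to 64.4% of the gamma reads and HBA2 held 50.0% to 53.2% of the HBA1 and HBA2 reads, with the reservation on near-identical copies given above. Alpha cluster reads were 0.398 and 0.422 of beta cluster reads with sg1-IRF2, 0.412 and 0.399 with sg2-IRF2, 0.415 and 0.417 with sgAAVS1, and 0.370 and 0.388 in untransduced cells. The untransduced cells thus held the lowest pair of ratios. HBM reads were 21.1% and 21.4% of HBZ reads with sg1-IRF2, 17.6% and 18.9% with sg2-IRF2, 21.3% and 22.8% with sgAAVS1, and 14.7% and 16.3% in untransduced cells. The untransduced libraries were lowest on this last measure and the sg2-IRF2 libraries next, while the sg1-IRF2 and sgAAVS1 libraries overlapped above them. It was not tested.

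Globin genes did not differ detectably between IRF2-silenced cells and sgAAVS1 cells. With both guides against sgAAVS1, 0 of 9 tested globin genes had an adjusted p under 0.05 by limma, where 1.59% of all tested genes did. At an unadjusted p under 0.05 there were also 0 of 9, against 10.6% of all tested genes, and voom on the recovered reads called 0. Differences on the log2 scale of the deposited values ran from −0.33 ± 0.19 (SE) for HBM to 0.26 ± 0.19 for HBD, and limma's adjusted p-values from 0.51 to 0.90. HBZ differed by −0.17 ± 0.09 with a 95% interval of −0.34 to 0.01, HBA2 by −0.12 ± 0.08 and HBA1 by −0.07 ± 0.08. In the beta cluster HBG2 differed by −0.09 ± 0.06, with an interval of −0.20 to 0.03, HBE1 by −0.08 ± 0.06 and HBG1 by −0.06 ± 0.06. HBQ1 differed by 0.07 ± 0.12. The median over the 9 genes was −0.08, beside −0.02 over all tested genes. HBD was the only globin gene whose guide libraries all lay on 1 side of the sgAAVS1 libraries, with deposited values of 2.70 and 2.83 for sg1-IRF2 and 2.57 and 2.43 for sg2-IRF2, against 2.35 and 2.40 for sgAAVS1. Over all tested genes 5.81% had all guide libraries above both sgAAVS1 libraries. Without sgAAVS1 replicate 2, HBG2 alone was called, at −0.22 on the log2 scale (limma's adjusted p 0.00723), where that fit called 1.83% of all tested genes lower.

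Taken one at a time, the guides gave the same count. With sg1-IRF2 against sgAAVS1, 0 of 9 globin genes were called by limma, where 0.825% of all tested genes were, and voom called 0. There were 0 of 9 at an unadjusted p under 0.05, against 7.71% of all tested genes, and differences ran from −0.08 ± 0.22 for HBM to 0.39 ± 0.22 for HBD. With sg2-IRF2 against sgAAVS1, limma and voom again called 0 of 9, where 8.16% of all tested genes were called. Here 4 of 9 had an unadjusted p under 0.05, against 23.6% of all tested genes: HBZ at −0.30 ± 0.10, HBM at −0.57 ± 0.22, HBG2 at −0.16 ± 0.07 and HBE1 at −0.15 ± 0.07. The adjusted p by limma was 0.0605 for HBZ, with a 95% interval of −0.50 to −0.10. In this comparison 5 globin genes had both sg2-IRF2 libraries below both sgAAVS1 libraries, namely HBE1, HBZ, HBM, HBA2 and HBA1, where 41.1% of all tested genes lay in that way. HBD had both above, where 10.3% of all tested genes did. The median over the 9 genes was −0.15, beside −0.07 over all tested genes. Without sgAAVS1 replicate 2 limma called 5 of 9 lower (HBG1, HBG2, HBE1, HBZ and HBA2), where that fit called 11.3% of all tested genes lower.

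The guides were also set against each other, sg1-IRF2 first. All 9 differences were positive, where 81.5% of all tested genes had a positive one. In all 9 both sg1-IRF2 libraries lay above both sg2-IRF2 libraries on the deposited scale, where 58.3% of all tested genes did. Limma and voom called 0, where 13.3% of all tested genes were called by limma. The difference was largest for HBM (0.49 ± 0.22) and HBZ (0.27 ± 0.10, limma's adjusted p 0.0703), and 4 of 9 had an unadjusted p under 0.05, against 31.4% of all tested genes. The median over the 9 genes was 0.14, and that over all tested genes was 0.11, so the deposited scale is offset between these groups. HBQ1 turned negative with library medians aligned, quantile normalization or voom, HBA2 and HBA1 with quantile normalization, and these 3 with HBG1, HBG2 and HBE1 without scaling by library. In fits to these 4 libraries alone, or without either sgAAVS1 library, HBG2, HBE1 and HBZ were called higher. Of all tested genes 26.4% were called higher in these 4 libraries alone, 23.5% without sgAAVS1 replicate 1 and 23.6% without sgAAVS1 replicate 2.

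The control comparison was the only one in which globin genes passed the test. In sgAAVS1 cells against untransduced cells HBZ and HBM were higher, 2 of 9 genes, where 2.97% of all tested genes were called higher and 4.75% in either direction. HBM had deposited log2 values of 3.04 and 2.94 in sgAAVS1 cells, against 2.02 and 2.18 in untransduced cells. The groups did not overlap, and the difference was 0.88 ± 0.22 (limma's adjusted p 0.0186), a ratio of 1.84. HBZ had values of 5.27 and 5.07 in sgAAVS1 cells, against 4.79 and 4.80 in untransduced cells. It also did not overlap, with a difference of 0.38 ± 0.10 (limma's adjusted p 0.0245), a ratio of 1.30. HBA2 lay apart and higher in the same way, and HBD lay apart and lower. The share of all tested genes whose groups did not overlap was not counted in this comparison. Since exons of HBZ and HBM share 205 bases, the rows may share reads. Voom called the same 2 genes, and 3 of 9 had an unadjusted p under 0.05, against 19.0% of all tested genes.

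Both calls rest on few libraries. Without sgAAVS1 replicate 1 the adjusted p by limma was 0.0722 for HBM and 0.170 for HBZ. Without untransduced replicate 1 it was 0.157 for HBM and 0.162 for HBZ, and without untransduced replicate 2 it was 0.068 for HBM and 0.120 for HBZ. Without the mean-variance trend it was 0.0927 for HBM and 0.185 for HBZ. Without sgAAVS1 replicate 2, in contrast, 6 of 9 globin genes were called higher, namely HBG1, HBG2, HBE1, HBZ, HBM and HBA2, where that fit called 6.38% of all tested genes higher. With no scaling by library, HBM differed by 0.77 and HBZ by 0.26, and limma called neither. HBA2 at 0.26 ± 0.09 had an adjusted p of 0.119 by limma, and HBA1 (0.15 ± 0.09), HBE1 (0.11 ± 0.07), HBG2 (0.10 ± 0.07) and HBG1 (0.09 ± 0.07) also did not pass. HBQ1 and HBD had negative differences, −0.10 ± 0.14 and −0.19 ± 0.22. The median was 0.11 over the 9 genes and 0.03 over all tested genes. Since RNA was taken from whole cultures, fewer cells with a globin gene on and less RNA per cell cannot be told apart.

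Both guides against untransduced cells gave 0 of 9 calls by limma and by voom, where 2.50% of all tested genes were called by limma. HBM differed by 0.55 ± 0.19 and HBZ by 0.21 ± 0.09 (limma's adjusted p 0.147 and 0.241), and these 2 were the genes at an unadjusted p under 0.05, against 14.0% of all tested genes. In both, all 4 guide libraries lay above both untransduced libraries, where 7.28% of all tested genes did so. HBG2 differed by 0.01 ± 0.06 and HBG1 by 0.03 ± 0.06. These comparisons share the sgAAVS1, untransduced or guide libraries with those above and are not independent of them.

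**Figure D3:**
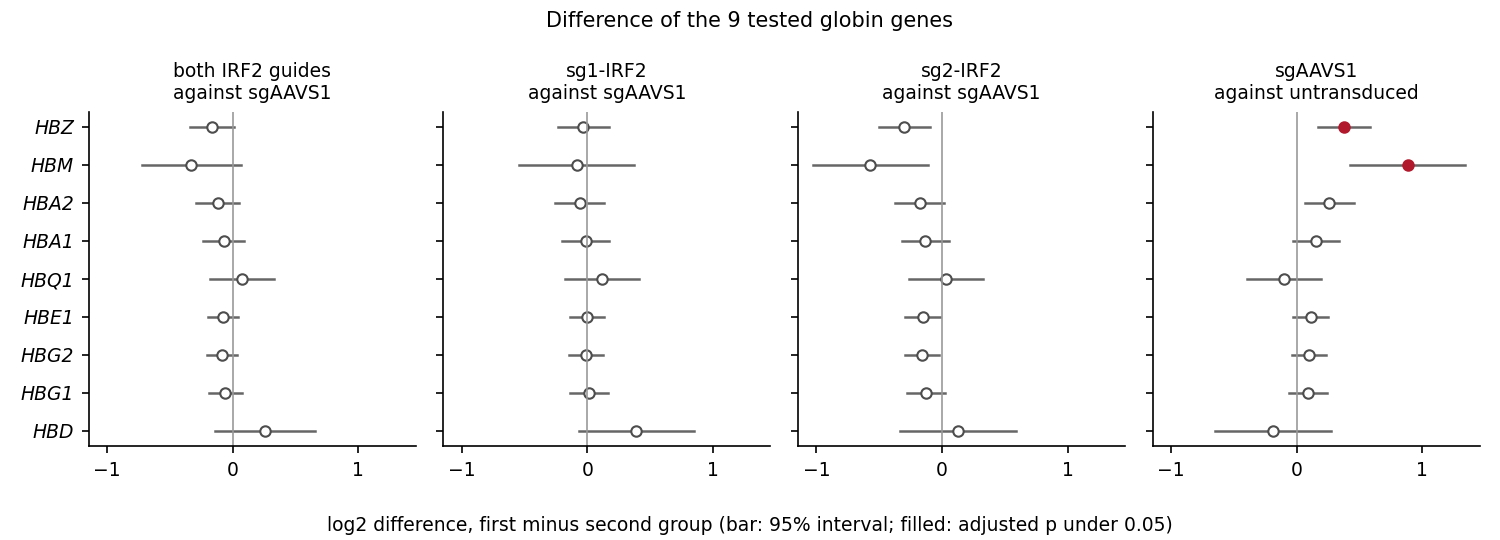
Log2 difference (horizontal axis, first minus second group, deposited scale) of the 9 tested globin genes in 4 comparisons, with 95% intervals from the limma fit as bars and filled points for an adjusted p under 0.05. Only HBZ and HBM in sgAAVS1 against untransduced cells are filled, and in sg1-IRF2 against sgAAVS1 every interval crosses 0.

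Reads of most globin genes followed library size less than those of the median gene. sgAAVS1 replicate 2 had 1.28 times the reads of replicate 1 in total, but 1.08 times the HBG2 reads, 1.07 times the HBG1 reads, 1.06 times the HBA2 reads and 1.03 times the HBQ1 reads. HBE1, HBZ and HBA1 each had 1.13 times as many, HBM 1.22 times and HBD 1.35 times, beside a median of 1.30 over the 9403 genes defined below. On the deposited scale HBG2, HBG1, HBE1, HBA2, HBA1, HBZ and HBM had their highest value of the 8 libraries in sgAAVS1 replicate 1, the shallowest library, and HBD had its lowest there. Over the 8 libraries the variance of unscaled reads was 0.177 times the mean for HBG1, 0.499 for HBA1, 0.542 for HBA2, 0.631 for HBD, 0.662 for HBG2 and 0.779 for HBE1. Counting alone gives 1 in libraries of equal depth and more in libraries that differ in depth, as these do. How much more was not worked out, so a value above 1 need not exceed counting noise. HBQ1, HBZ and HBM were above 1, at 1.37, 1.59 and 1.81. Among 9403 tested genes with an exonic length and a mean of at least 100 reads the median was 3.86, and 4.25% lay below 1.

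The same pattern was graded over genes by reads per exonic base. In 4986 genes with under 0.1 reads per base the median ratio of sgAAVS1 replicate 2 to replicate 1 was 1.34, and it was 1.28 from 0.1 to 0.2, 1.21 from 0.2 to 0.3 and 1.17 from 0.3 to 0.4. It was 1.12 in the 31 genes at 0.6 or more. HBG2 had 0.952 reads per base, HBE1 0.534, HBG1 0.284, HBA2 0.268, HBA1 0.249, HBZ 0.228 and HBQ1 0.200. How duplicate reads were treated is not given in the sources used here, and its part in these values was not tested.

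**Figure D4:**
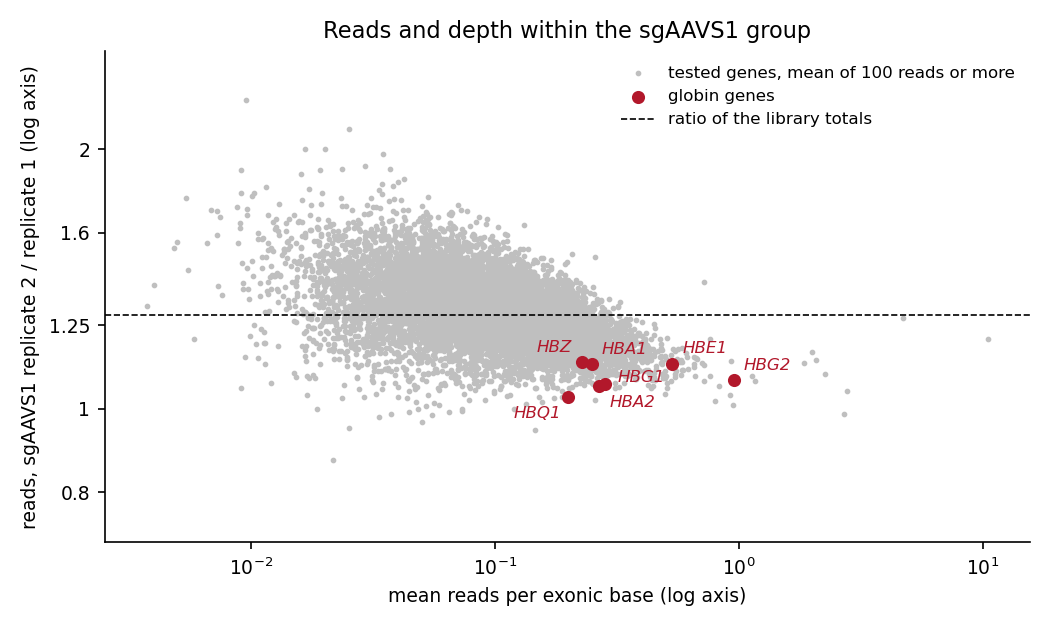
Ratio of reads in sgAAVS1 replicate 2 to replicate 1 (vertical log axis) against mean reads per exonic base (horizontal log axis) for 9403 tested genes (grey) and the 7 globin genes with a mean of at least 100 reads (red). The dashed line is the ratio of library totals, 1.28; all 7 globin genes lie below it, between 1.03 and 1.13.

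Regulators of the globin genes were followed as a list of 30, of which 29 were tested. BCL11A, the repressor of the gamma genes in adult cells, had 0 reads in every library. With both guides against sgAAVS1, 0 of 29 were higher and 2 lower, NFIX at −0.29 ± 0.06 and ZBTB7A at −0.20 ± 0.05 (limma's adjusted p 0.00309 and 0.0238). Of all tested genes 1.59% were called in that comparison, in either direction. NFIX and ZBTB7A are transcription factors that repress gamma globin in adult erythroid cells. The list's median was −0.04, beside −0.02 over all tested genes. NFIX had 368 and 399 reads with sg1-IRF2, 387 and 363 with sg2-IRF2, 370 and 525 with sgAAVS1, and 427 and 417 in untransduced cells. Both guides against untransduced cells gave −0.11 ± 0.06 for NFIX and 0.01 ± 0.05 for ZBTB7A, neither called by limma.

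With sg1-IRF2 against sgAAVS1, 0 of 29 were called, where 0.825% of all tested genes were. With sg2-IRF2 against sgAAVS1, 7 were lower, where 7.11% of all tested genes were, from −0.38 ± 0.06 for NFIX to −0.17 ± 0.04 for IGF2BP1, with SOX6, ZBTB7A, LMO2, IKZF1 and GATAD2A between them, and the list's median was −0.11, beside −0.07 over all tested genes. With sg1-IRF2 against sg2-IRF2, 12 were higher (TAL1, LIN28B, IGF2BP3, IKZF1, SOX6, LMO2, CHD4, NFE2, PRMT5, IGF2BP1, DNMT1 and GATAD2A) and 0 lower, where 12.7% of all tested genes were higher, with a median of 0.14 beside 0.11 over all tested genes. In sgAAVS1 against untransduced cells 6 were higher, where 2.97% of all tested genes were, from 0.26 ± 0.05 for IKZF1 to 0.16 ± 0.04 for GATAD2A, with ZBTB7A, LIN28B, MYB and IGF2BP1 between them, and the median was 0.10 beside 0.03. LIN28B and IGF2BP1 are RNA-binding proteins of the fetal programme, and MYB is a factor of erythroid progenitors. With both guides against untransduced cells IKZF1 was higher (0.16 ± 0.04) and SOX6, a repressor that acts with BCL11A, was lower (−0.24 ± 0.06). Of all tested genes 2.50% were called there, in either direction.

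Genes next to the clusters did not move as a block. Of the alpha cluster's neighbours 10 were tested, and 1 was higher with both guides against sgAAVS1, RHBDF1 at 0.34 ± 0.07 (limma's adjusted p 0.0132). Of all tested genes 1.59% were called there, in either direction. RHBDF1 encodes an inactive rhomboid protein. It had 220 and 232 reads with sg1-IRF2, 284 and 251 with sg2-IRF2, 173 and 198 with sgAAVS1, and 258 and 264 in untransduced cells. Its sgAAVS1 libraries were thus the lowest of the 8. It was lower in sgAAVS1 against untransduced cells (−0.38 ± 0.09), higher with sg2-IRF2 against sgAAVS1 (0.38 ± 0.09) and not called with both guides against untransduced cells (−0.04 ± 0.07). The neighbours ITFG3 (0.17 ± 0.06) and LUC7L (−0.24 ± 0.06) were called with sg1-IRF2 against sg2-IRF2, where 13.3% of all tested genes were. NPRL3, whose introns hold the enhancers of the alpha cluster, was not called in any comparison. Of the beta cluster's neighbours 8 were tested and 0 were called by limma in any of the 6 comparisons. Over all tested genes the share called ran from 0.825% to 13.3% by comparison. BGLT3, a noncoding RNA beside the gamma genes, had 50 and 40 reads with sg1-IRF2, 66 and 73 with sg2-IRF2, 61 and 68 with sgAAVS1, and 58 and 55 in untransduced cells. Its difference with both guides against sgAAVS1 was −0.28 ± 0.15, beside 0.05 ± 0.04 for STIM1, a calcium sensor, and 0.10 ± 0.09 for TRIM6, the next lowest p-values among these neighbours.

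Genes that assemble haemoglobin and its haem were tested as a list of 7. With both guides against sgAAVS1, limma called 0, where it called 1.59% of all tested genes. AHSP, the chaperone of free alpha chains, had 56 to 73 reads and differed by −0.21 ± 0.14, UBE2O by −0.06 ± 0.04 and the mitochondrial iron importer SLC25A37 by 0.05 ± 0.04. ALAS2, the erythroid enzyme that starts haem synthesis, was higher in sgAAVS1 against untransduced cells (0.31 ± 0.07, limma's adjusted p 0.00473), the comparison in which HBZ and HBM were higher. ALAS2 was also higher with both guides against untransduced cells (0.31 ± 0.06) and with sg1-IRF2 against sg2-IRF2 (0.22 ± 0.07). It had 437 and 504 reads with sg1-IRF2, 454 and 443 with sg2-IRF2, 372 and 512 with sgAAVS1, and 366 and 395 in untransduced cells.

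Among the erythroid markers 1 of 12, ALAS2, was called in sgAAVS1 against untransduced cells, where 4.75% of all tested genes were. Of the 12 differences 11 were positive, with a median of 0.14 beside 0.03 over all tested genes. The share of positive differences over all tested genes was not counted in this comparison. The summed erythroid marker level was 1454 and 1389 RPM with sgAAVS1, against 1368 and 1386 in untransduced cells. ANK1, the erythrocyte ankyrin, was lower with sg2-IRF2 against sgAAVS1 (−0.15 ± 0.04, limma's adjusted p 0.0201) and higher with sg1-IRF2 against sg2-IRF2 (0.21 ± 0.04, limma's adjusted p 0.00286). The megakaryocyte integrin ITGA2B was higher with both guides against untransduced cells (0.21 ± 0.05, limma's adjusted p 0.0394). The myeloid integrin ITGAM was higher with sg1-IRF2 against sg2-IRF2 (0.38 ± 0.11, limma's adjusted p 0.0230). ITGAM was lower in sgAAVS1 against untransduced cells (−0.40 ± 0.11), where 4.75% of all tested genes were called. Of the 4 tested myeloid markers 2 had a positive difference there, among them CD33 at 0.17 ± 0.07, not called by limma. The median of the 4 was 0.06, beside 0.03 over all tested genes. The summed myeloid markers were 147 and 145 RPM with sgAAVS1, against 153 and 144 in untransduced cells. Their part in the HBZ and HBM values was not tested.

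The genes most like HBA2 and HBG2, the members with the most reads in each cluster, were ranked by Pearson's correlation of deposited log2 values over the 8 libraries among 8797 genes. For HBG2 they were C6orf62 (0.993), RUVBL2 (0.992), PDIA6 (0.991), CLTC (0.989) and GTF3A (0.989). For HBA2 they were FAM195A (0.978), PAXIP1-AS1 (0.969), NEURL4 (0.967), MDK (0.967) and GANAB (0.967). These values describe 8 libraries that share depth and scaling, and the ranking picks the highest of many.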

How the data were processed

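Per the labels' protocols, total RNA went through DNase digestion and removal of ribosomal RNA before directional library preparation. Per the submitters' processing notes, cutadapt and Bowtie2 were used with hg38. The sources used here give no version of either, and neither the counter, its strand setting nor its annotation.

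The authors deposited log2 values, in which the reads of a gene had been divided by a library factor and 0 reads replaced by 0.9 read. All values above that (100%, tolerance 0.01 read) came out as whole reads, which gave the counts and depths used here. The annotation of exons was GENCODE release 29.

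Group means of all 8 libraries were fitted by limma 3.58.1 (R 4.3.3; lmFit, then contrasts.fit, then eBayes with a trend) to genes with a mean log2 value of at least 0. The fit had 4 residual and 22.4 prior degrees of freedom. Tests were two-sided with Benjamini-Hochberg adjustment over the 14665 genes, and adjusted p under 0.05 counted as called. Errors of differences are standard errors, and intervals are 95% intervals. Python 3.11.15 with pandas 2.3.3 and numpy 2.4.6 made the sums and plots. In a test on simulated data the fit recovered the changed genes. The planted changes were larger than any globin difference given here, so that test does not tell how small a change could be found.

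Between the 2 libraries of a group, reads of the tested genes gave a chi-square per degree of freedom of 0.781 with sg1-IRF2, 0.658 with sg2-IRF2, 1.65 with sgAAVS1 and 0.821 in untransduced cells, where counting alone gives 1. Over the 9 globin genes it was 0.698 with sg1-IRF2, 0.396 with sg2-IRF2, 3.82 with sgAAVS1 and 0.917 in untransduced cells. Libraries of 3 groups thus differed by less than counting noise, and the labels list them as replicates, so both were kept.

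All 10 members are named. Of the other lists, genes called in a comparison are named, and otherwise the 3 with the lowest p in the comparison of both guides with sgAAVS1. For likeness, the 5 genes of highest correlation are named. Members and lists were chosen with earlier results of these data known. HBZP1, HBAP1, HBMP1, HBBP1 and OR52Z1 were not analysed here. Of the cell type markers, 1 is not reported here.

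Alternatives were other scalings (quantile normalization, medians aligned, none), filters, no trend, voom, a constant of 1 added, a replicate block, only the groups compared, near-identical pairs summed, all controls as 1 group and each library left out.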

Additional observations from a re-analysis of the deposited data

How the results depend on the processing

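Log2 differences that turned sign are given by comparison. With both guides against sgAAVS1, taking all 4 control libraries as 1 group gave HBZ 0.0227, HBM 0.11, HBA2 0.0107 and HBA1 0.00291, and no scaling by library gave HBG1 0.0139. Here leaving out each library gave HBG1 −0.20 to 0.0847, HBG2 −0.22 to 0.050, HBE1 −0.18 to 0.0262, HBA2 −0.27 to 0.0278, HBA1 −0.18 to 0.032 and HBQ1 −0.10 to 0.24. With sg1-IRF2 against sgAAVS1, medians aligned gave HBG1 −0.021, quantile normalization gave HBG1 −0.0203, and voom gave HBG1 −0.00875. There, leaving out each library gave HBG1 −0.13 to 0.16, HBG2 −0.15 to 0.12, HBE1 −0.11 to 0.10, HBZ −0.13 to 0.0693, HBA2 −0.21 to 0.0861, HBA1 −0.12 to 0.0905 and HBQ1 −0.0507 to 0.29. With sg2-IRF2 against sgAAVS1, no scaling by library gave HBG1 0.0192 and HBA1 0.0187. There, leaving out each library gave HBG1 −0.27 to 0.0124 and HBQ1 −0.14 to 0.20. With sg1-IRF2 against sg2-IRF2, medians aligned gave HBQ1 −0.0226, quantile normalization gave HBA2 −0.00368, HBA1 −0.00409 and HBQ1 −0.0466, no scaling by library gave HBG1 −0.0107, HBG2 −0.0107, HBE1 −0.00489, HBA2 −0.0388, HBA1 −0.0384 and HBQ1 −0.0658, and voom gave HBQ1 −0.0177. In sgAAVS1 against untransduced cells, no scaling by library gave HBG1 −0.0284, HBG2 −0.0152 and HBE1 −0.00353. There, leaving out each library gave HBG1 −0.0559 to 0.23, HBG2 −0.0358 to 0.24 and HBQ1 −0.34 to 0.14. With both guides against untransduced cells, no scaling by library gave HBG1 −0.0145, HBG2 −0.0291 and HBE1 −0.00899. There, leaving out each library gave HBG2 −0.0451 to 0.0735, HBE1 −0.0232 to 0.0919 and HBQ1 −0.27 to 0.22.

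Counts of globin genes called changed as follows. In sgAAVS1 against untransduced cells the count of 2 became 0 without a trend and 0 without scaling, and ran from 0 to 6 with libraries left out. Leaving out libraries gave 0 to 1 with both guides against sgAAVS1, 0 to 5 with sg2-IRF2 against sgAAVS1 and 0 to 3 with sg1-IRF2 against sg2-IRF2. The last also had 3 with only the groups compared. With no filter sg2-IRF2 against sgAAVS1 had 1 (HBZ) and sgAAVS1 against untransduced cells 3 (HBZ, HBM and HBA2, whose adjusted p by limma was 0.0494). The share of all genes called without the filter was not counted, so these counts have no baseline. The causes were not tested. The sources used here do not say if the replicate numbers pair the libraries. Deviations of same-numbered libraries correlated from −0.08 to 0.22, which cannot decide it. With a replicate block the count stayed at 2 (HBZ and HBM) in sgAAVS1 against untransduced cells and 0 in the other 5 comparisons. Fitting reads without scaling and leaving libraries out of the sums were chosen after seeing the data. So was summing near-identical pairs in all comparisons but that of both guides against sgAAVS1. All 24 values of the sums stayed within the largest SD of the groups compared. In a group of 2, leaving out 1 library always moves the mean by less than the SD, so that result was fixed in advance. The rest only took mitochondrially encoded and globin reads out of the library totals. Groups of 2 libraries limit what can be called, and HBB, at 0 or 1 read, is beyond this depth.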

Other observations

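Of the olfactory receptor genes that lie inside the long HBE1 and HBG2 spans, 4 on the same minus strand had reads in every library. OR51B5 had 526 to 688 reads per library, OR51B4 151 to 228, OR51B2 38 to 69 and OR51I1 19 to 55. OR51B6, OR51M1 and OR51I2, which lie in the same stretch on the plus strand, had 0 reads in all 8 libraries, as did OR52H1 on the minus strand within the HBG2 span. OR51B5 shares 84 exonic bases with HBE1 and 37 with HBG2 in GENCODE release 29. None of the 4 was called by limma in any comparison, where 0.825% to 13.3% of all tested genes were called by comparison. These 4 are among the beta cluster neighbours described above.

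Of the globin-fold genes outside the clusters, MB (myoglobin), NGB (neuroglobin) and ADGB (androglobin) had 0 reads in every library, and CYGB (cytoglobin) had 2 to 7. None passed the filter on low values.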
